A study of Caenorhabditis elegans with 6 samples.

Results

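The histone genes of *C. elegans* were taken from whole-worm RNA sequencing by gene name, as every gene named *his* or *hil* followed by a number, together with *htz-1*. Of the 46904 genes in the count tables, 81 matched, and the 44 with 10 or more read counts summed over the 6 libraries were kept. The 44 comprised 9 linker histone H1 genes, 8 H2A genes, 6 H2B genes, 12 H3 genes and 9 H4 genes. The worms were wild-type N2 hermaphrodites, 3 days old at the start and fed for 5 days, with about 200 animals per group and 2 libraries per group. One group was fed *E. coli* OP50 mixed in equal parts with LL12007, a nisin-producing *Lactococcus lactis* strain (OP50 + LL12007). Another was fed OP50 mixed with LL100933, a strain that does not produce nisin (OP50 + LL100933, for which the sample labels give the strain number 100923). The control group was fed OP50 alone. Nisin is an antibacterial peptide. Neither the labels nor the methods name separate worm cultures for the 2 libraries of a diet, so the p-values below cover library-to-library spread that could be purely technical.

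Pairs of the core histones H2A, H2B, H3 and H4 make up the protein core of the nucleosome around which DNA is wrapped, and the linker histone H1 binds the DNA between nucleosomes. Most animal core histone genes are expressed during DNA replication, have no intron, and give mRNAs that end in a stem-loop in place of a poly(A) tail. Replacement variants, such as H3.3 and H2A.Z, are incorporated outside replication as well, and their genes usually have introns and give polyadenylated mRNAs. The libraries were made from poly(A)-selected RNA. The labels of the members were checked against the gene annotation deposited in the files: 36 of the 44 carried a nucleosome term, 7 others, all H4 genes, carried a DNA-binding term, and *his-73* carried neither.

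Total counts per library ranged from 14929196 to 21691687, and 14899 genes had enough counts to be tested. The first OP50 + LL100933 library stood apart in ribosomal RNA, which took 0.919% of its counts against 0.0841% to 0.174% in the other 5 libraries. The second OP50 library stood apart in histone counts, with 2065 CPM (read counts scaled to the total of the library) against 1644 to 1803 CPM in the other 5.

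Of the 37 matching genes that were not kept, 21 had 0 counts in every library and 16 had 1 to 9 counts. At the threshold, *his-47* was kept with 12 counts, and *his-56* with 9 counts was not. The gene models in the files, set against coding lengths from an Ensembl annotation of the same assembly, divided the 81 genes further. In 29 genes the model covered the coding sequence only, and none of these reached 10 counts. In the other 52 the model extended beyond the coding sequence, and 44 of these were members. The treatment of reads that match several near-identical copies is not stated by the labels or the methods, the level of a single copy is therefore uncertain, and sums are given beside it.

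The histone genes lay largely in clusters. Joining genes no more than 5000 nt apart gave 14 clusters with 67 of the 81 genes, and 30 of the 44 members were in clusters. The 13-gene cluster on chromosome II (WBcel235, II:13817759-13828697) had a single member, *his-11*, and its summed level did not exceed 0.462 CPM, here and below scaled by TMM factors, in any library. The cluster of *his-35*, *his-41* and *his-37* on chromosome V (V:9544611-9547607), which encode an H2A, an H2B and an H4 and each have an annotated intron, summed to 255 and 260 CPM with OP50 + LL12007, 233 and 264 CPM with OP50 + LL100933, and 234.7 and 209 CPM with OP50. The group ranges of this cluster did not overlap between OP50 + LL12007 and OP50.

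Measured levels differed with gene structure. Most animal core histone mRNAs lack a poly(A) tail, and the libraries were poly(A)-selected, so a low level here need not mean low expression. The parts of poly(A) selection and of reads shared by near-identical copies were not tested. An intron was annotated in 17 members, namely the 9 H1 genes, *htz-1*, *his-35*, *his-57*, *his-41*, *his-71*, *his-72*, *his-74* and *his-37*. Introns were taken from an Ensembl annotation of the same assembly, not from the gene models in the files. By it *his-73* has no intron, although its model in the files is in 2 separate pieces. The longest coding sequence it gives is 46 residues for *his-73* and 66 for *hil-7*, and both were kept in the H3 and H1 counts and sums. Per kb of gene model, the median level over these 17 was 101 CPM per kb (range 0.253 to 410), against 1.74 CPM per kb (range 0.198 to 31.5) for the 27 without an intron. The intron-containing genes held between 95.7% and 97.2% of all histone counts in each library. Among the 27, only *his-68* and *his-60* exceeded a mean of 20 CPM per kb, and *his-57* and *hil-8* were intron-containing genes below 1 CPM per kb.

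**Figure D1:**
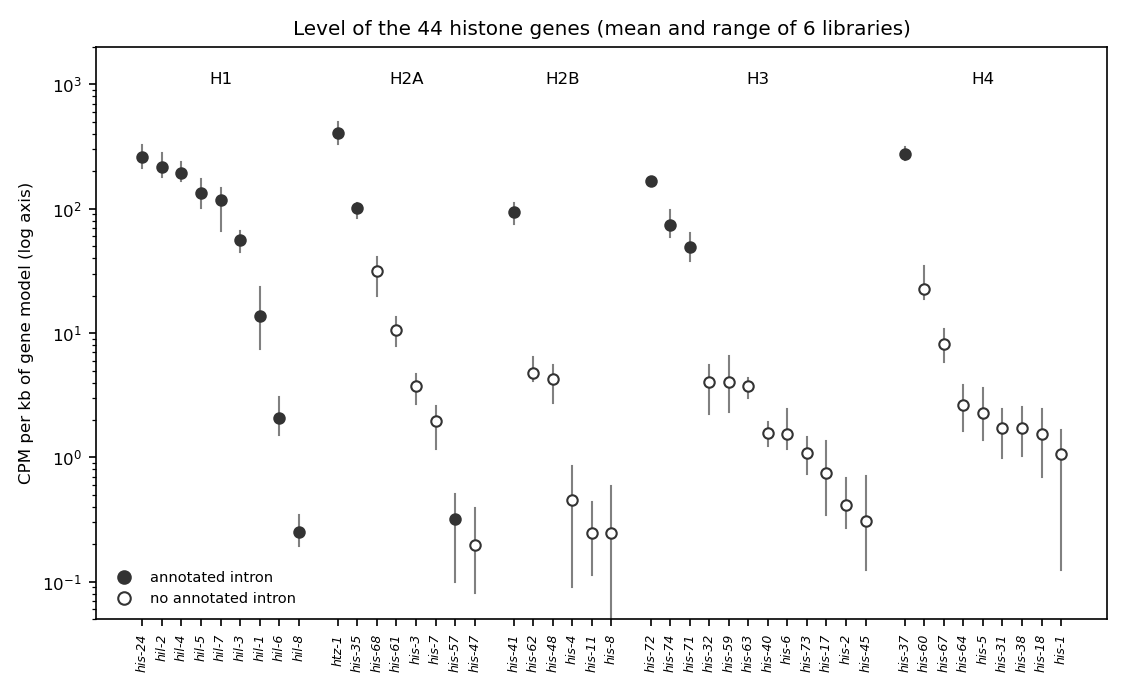
Level of each of the 44 histone genes as CPM per kb of gene model on a log axis, grouped by histone class, with points for the mean of 6 libraries and lines for their range (a line that reaches the bottom axis includes a library with 0 counts). In every class the highest point is an intron-containing gene, from *htz-1* at 410 CPM per kb to *his-41* of the H2B class, and most open points lie below 10 CPM per kb.

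Between OP50 + LL12007 and OP50, 4 histone genes fell and none rose, out of 34 that had enough counts to be tested (edgeR's quasi-likelihood test, Benjamini-Hochberg adjusted over all tested genes, adjusted p under 0.05). They were the H3.3-type gene *his-74*, the linker histone genes *hil-4* and *hil-5*, and the H2A gene *his-68*. Of all 14899 tested genes, 7.71% were called lower and 8.76% higher in this comparison. The log2 fold change was below 0 in 27 of the 34 and above 0 in 7, with a median of -0.29 against a median of 0.02 over all tested genes. The 15 tested members with an intron had 9 below 0 and 6 above, with a median of -0.08. The 19 without one had 18 below and 1 above, with a median of -0.37. All members were measured in the same libraries, so their signs are not independent. At an unadjusted p under 0.05, 2 members were higher and 7 lower (18.8% and 18.1% of all tested genes). DESeq2 on the 6 libraries gave 12 of the 34 no adjusted p. It called none higher, against 12.2% of the genes that received an adjusted p. It called the same 4 genes and *htz-1* lower, against 10.4% called lower of the genes that received an adjusted p. The 10 untested members were *hil-8*, *his-57*, *his-47*, *his-4*, *his-8*, *his-11*, *his-17*, *his-73*, *his-2* and *his-45*. In whole worms, fewer cells of a type and less RNA per cell cannot be told apart.

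The H3 gene *his-74* encodes an H3.3-type replacement histone and lies on chromosome V (V:12659704-12660330, minus strand, 1 intron). Its level was 36.8 and 34.7 CPM with OP50 + LL12007, 41.7 and 35.8 CPM with OP50 + LL100933, and 54.3 and 56.2 CPM with OP50. All 4 *Lactococcus* libraries lay below both OP50 libraries. The log2 fold change was -0.63 ± 0.12 (SE) with OP50 + LL12007 (edgeR adjusted p = 0.0209) and -0.51 ± 0.12 with OP50 + LL100933 (edgeR adjusted p = 0.0435). The OP50 + LL12007 call was lost when either LL12007 library was left out (highest edgeR adjusted p = 0.233), and the estimate then rested on the other LL12007 library. The OP50 + LL100933 call held in 1 of the 6 fits that left out a library, the one without the first OP50 library, and the log2 fold change stayed between -0.63 and -0.39. It was also lost when only the 4 libraries of the pair were fitted, by edgeR or DESeq2, with upper-quartile factors and with a replicate block.

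The 2 linker histone genes that fell, *hil-4* (V:4754313-4755469) and *hil-5* (I:5774585-5775610), each have 1 intron and encode H1 proteins of 253 and 225 residues by the annotation. The level of *hil-4* was 169 and 162 CPM with OP50 + LL12007, 183 and 177 CPM with OP50 + LL100933, and 207 and 231 CPM with OP50. The level of *hil-5* was 107 and 87.6 CPM with OP50 + LL12007, 125 and 101 CPM with OP50 + LL100933, and 130 and 151 CPM with OP50. For both genes, all *Lactococcus* libraries lay below the OP50 libraries. With OP50 + LL12007 the log2 fold change was -0.40 ± 0.11 for *hil-4* (edgeR adjusted p = 0.0393) and -0.53 ± 0.15 for *hil-5* (edgeR adjusted p = 0.0427). With OP50 + LL100933 neither passed the edgeR test (adjusted p = 0.122 for *hil-4* and 0.179 for *hil-5*). Neither gene was called without the second OP50 library, at -0.31 for *hil-4* (edgeR adjusted p = 0.0988) and -0.40 for *hil-5* (edgeR adjusted p = 0.123). Neither was called without the first or the second LL12007 library, where *hil-4* was at -0.43 and -0.36 and *hil-5* at -0.68 and -0.37, and *hil-4* was not called without the second LL100933 library (-0.40, edgeR adjusted p = 0.0524). Both calls were lost with upper-quartile factors and with a replicate block, that of *hil-4* also with library totals and that of *hil-5* without the robust fit.

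The H2A gene *his-68* has no annotated intron and stands beside the H4 gene *his-67* (I:9988341-9989617). It had 13.96 and 11.1 CPM with OP50 + LL12007, 22.4 and 14.3 CPM with OP50 + LL100933, and 20.8 and 22.9 CPM with OP50. The LL12007 libraries were below the OP50 libraries, whereas the first LL100933 library lay among them. The log2 fold change was -0.80 ± 0.22 with OP50 + LL12007 (edgeR adjusted p = 0.0417) and -0.25 ± 0.22 with OP50 + LL100933 (edgeR adjusted p = 0.457). The OP50 + LL12007 call was lost without the second OP50 library (-0.72, edgeR adjusted p = 0.0927) and without the first or the second LL12007 library (-0.98 and -0.63, edgeR adjusted p = 0.114 and 0.3005).

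**Figure D2:**
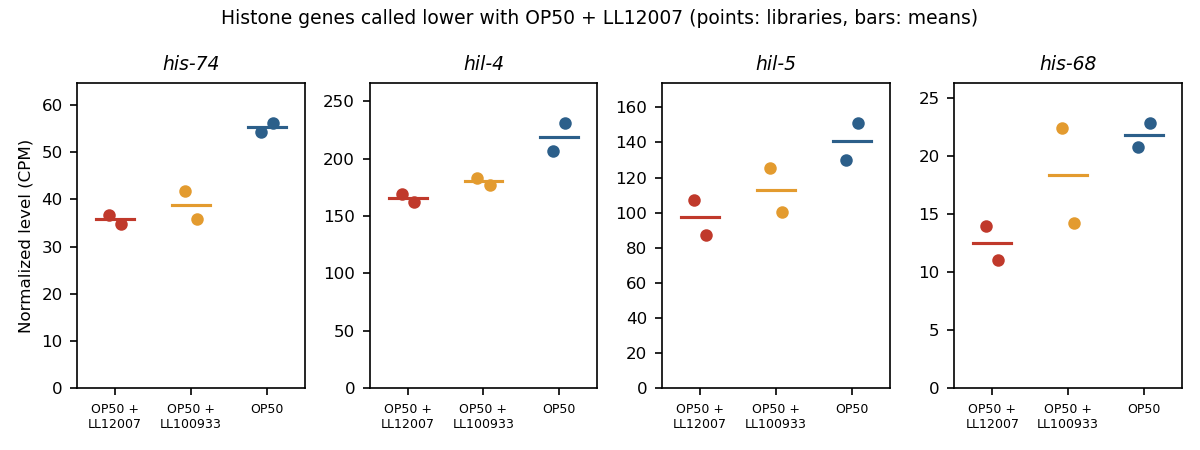
Normalized level in CPM (axes start at 0) of *his-74*, *hil-4*, *hil-5* and *his-68* in each library (points) with the group mean (bars), for OP50 + LL12007, OP50 + LL100933 and OP50. Both LL12007 libraries lie below both OP50 libraries for each gene, while 1 of the LL100933 libraries of *his-68* reached 22.4 CPM, within the OP50 range.

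None of the other H1 genes passed the test in the comparisons with OP50. *his-24*, the X-linked H1 gene with the highest level per kb of its class, had 248 and 247 CPM with OP50 + LL12007, 235.5 and 197 CPM with OP50 + LL100933, and 223 and 301 CPM with OP50, and its groups overlapped in both comparisons with OP50. *hil-1* had 8.08 and 6.71 CPM with OP50 + LL12007, 15.3 and 16.1 CPM with OP50 + LL100933, and 7.42 and 21.3 CPM with OP50. The OP50 libraries of *hil-1* lay on both sides of the LL100933 libraries. Its log2 fold change was -0.94 ± 0.47 with OP50 + LL12007, which did not pass (edgeR adjusted p = 0.198). This value turned on which OP50 library was used, since it was -1.52 and called lower without the first OP50 library (edgeR adjusted p = 0.00105), and 0.01 without the second (edgeR adjusted p = 0.984). With OP50 + LL100933, *hil-1* was at 0.14 ± 0.45, at -0.44 without the first OP50 library and at 1.11 and called higher without the second (edgeR adjusted p = 0.0209). Summed over the 9 H1 genes, the level was 843 and 824 CPM with OP50 + LL12007, 882 and 809 CPM with OP50 + LL100933, and 819 and 1111 CPM with OP50, so the second OP50 library was the highest and the groups overlapped. Without it, the OP50 value was 819 CPM, below both LL12007 libraries. H1 genes held between 46.7% and 53.9% of the histone counts.

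The H2A.Z gene *htz-1* encodes a replacement H2A variant found near the starts of genes, and had the highest level of the members per kb. It lies on chromosome IV (IV:4445990-4446997, 1 intron). It had 334 and 323 CPM with OP50 + LL12007, 460 and 316 CPM with OP50 + LL100933, and 443 and 480 CPM with OP50. The LL12007 libraries lay below the OP50 libraries, and the LL100933 libraries lay on both sides of the LL12007 libraries. Its log2 fold change of -0.49 ± 0.17 with OP50 + LL12007 did not pass (edgeR adjusted p = 0.0791). DESeq2 on the 6 libraries called it lower (adjusted p = 0.0342), with 10.4% of the genes that received an adjusted p called lower by that tool. On the 4 libraries of the pair, edgeR and DESeq2 also called it lower. In the fits that left out a library, this log2 fold change lay between -0.55 and -0.42. With OP50 + LL100933 the log2 fold change was -0.25 ± 0.17 (edgeR adjusted p = 0.346), at -0.55 without the first LL100933 library and 0.01 without the second.

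None of the H2A, H2B and H4 genes of the chromosome V cluster passed the test. *his-35* (H2A) had 71.55 and 72.02 CPM with OP50 + LL12007, 72.5 and 68.1 CPM with OP50 + LL100933, and 59.7 and 55.4 CPM with OP50. All *Lactococcus* libraries of *his-35* exceeded the OP50 libraries, with a log2 fold change of 0.32 ± 0.11 with OP50 + LL12007 (edgeR adjusted p = 0.0655) and 0.29 ± 0.11 with OP50 + LL100933 (edgeR adjusted p = 0.103). *his-41* (H2B) had 62.1 and 58.3 CPM with OP50 + LL12007, 47.1 and 54.4 CPM with OP50 + LL100933, and 53.7 and 41.9 CPM with OP50. Its log2 fold change with OP50 + LL12007 was 0.33 ± 0.14 (edgeR adjusted p = 0.125). This value depended on the OP50 library used, at 0.52 without the first and 0.17 without the second. The H2B gene of next highest level, the intronless *his-48* (IV:11324719-11325222), had 2.21 and 1.38 CPM with OP50 + LL12007, 2.797 and 1.59 CPM with OP50 + LL100933, and 2.61 and 2.25 CPM with OP50. The LL12007 libraries of *his-48* lay below the OP50 libraries, with a log2 fold change of -0.44 ± 0.38 that did not pass (edgeR adjusted p = 0.416). *his-37* (H4) had 121 and 130 CPM with OP50 + LL12007, 114 and 141 CPM with OP50 + LL100933, and 121 and 112 CPM with OP50, with overlapping groups. *his-41* and *his-37* overlap other genes in the annotation, and whether the counting used strand is not stated.

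Of the 3 H3.3-type genes with an intron, *his-74* alone passed the edgeR test. *his-72*, with the highest level of the 3 per kb, had 106 and 106 CPM with OP50 + LL12007, 113 and 99.2 CPM with OP50 + LL100933, and 110 and 113 CPM with OP50. The X-linked *his-71* had 29.1 and 24.8 CPM with OP50 + LL12007, 34.2 and 37.4 CPM with OP50 + LL100933, and 27.4 and 22.3 CPM with OP50. Both LL100933 libraries of *his-71* exceeded the other 4, and its log2 fold change of 0.53 ± 0.15 with OP50 + LL100933 lay just outside the threshold (edgeR adjusted p = 0.059). DESeq2 on the 6 libraries called *his-71* higher (adjusted p = 0.0392), with 9.42% of the genes that received an adjusted p called higher. It also called *his-74* lower (6.03% called lower). In this comparison 17 of the 34 tested members received no adjusted p from DESeq2. Per kb, *his-74* made up 22.8% and 22.4% of the 3 genes with OP50 + LL12007, 23.4% and 22.02% with OP50 + LL100933, and 30.03% and 31.1% with OP50, which is a description of the values above.

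**Figure D3:**
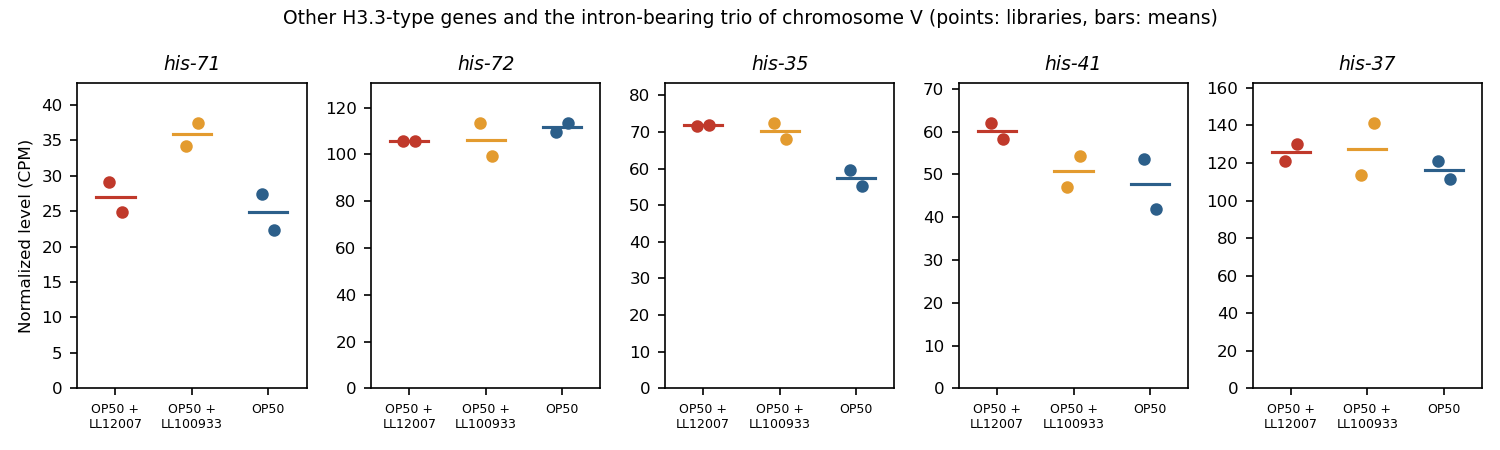
Normalized level in CPM (axes start at 0) of *his-71*, *his-72*, *his-35*, *his-41* and *his-37* in each library (points) with group means (bars), for OP50 + LL12007, OP50 + LL100933 and OP50. The OP50 + LL100933 points of *his-71* (34.2 and 37.4 CPM) and the *Lactococcus* points of *his-35* (68.1 to 72.5 CPM) lie above those of OP50.

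Between OP50 + LL100933 and OP50, *his-74* was the only histone gene called, lower, and none was called higher, while 2.24% of all tested genes were called lower and 4.38% higher. The log2 fold change was above 0 in 18 of the 34 tested members and below 0 in 16, with a median of 0.01. At an unadjusted p under 0.05, 2 members were higher and 2 lower (15.6% and 15.8% of all tested genes). Group ranges did not overlap in 4 members with higher and 5 with lower values (29.2% and 29.9% of all tested genes). With OP50 + LL12007 the corresponding numbers were 3 higher and 15 lower (34.6% and 33.9%).

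Between OP50 + LL12007 and OP50 + LL100933, no histone gene was called by edgeR, which called 0.0% of the tested genes in either direction. DESeq2 on the 6 libraries also called none. It called 0.759% higher and 0.555% lower of the genes that received an adjusted p, and 15 of the 34 tested members received none. Group ranges did not overlap in 3 members with higher and 9 with lower values (24.6% and 21.9% of all tested genes). At an unadjusted p under 0.05, 3 members had lower values and none higher with OP50 + LL12007 (5.01% of all tested genes lower and 5.26% higher): *his-71*, *his-68* and the intronless H3 gene *his-59*, named here after its values were seen. The largest change of a member past the filter was in *his-1* (V:16042486-16043013), at -1.11 ± 0.78 with an edgeR adjusted p of 0.655, on 1 to 17 counts per library. It had 0.695 and 0.0658 CPM with OP50 + LL12007, 0.880 and 0.795 CPM with OP50 + LL100933, and 0.666 and 0.289 CPM with OP50. The second LL12007 library had 1 count, and the log2 fold change was -3.54 without the first LL12007 library and -0.28 without the second. *hil-1* had -1.08 ± 0.47 (edgeR adjusted p = 0.499), and was called lower when only the 4 libraries of these 2 groups were fitted or when either OP50 library was left out.

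**Figure D4:**
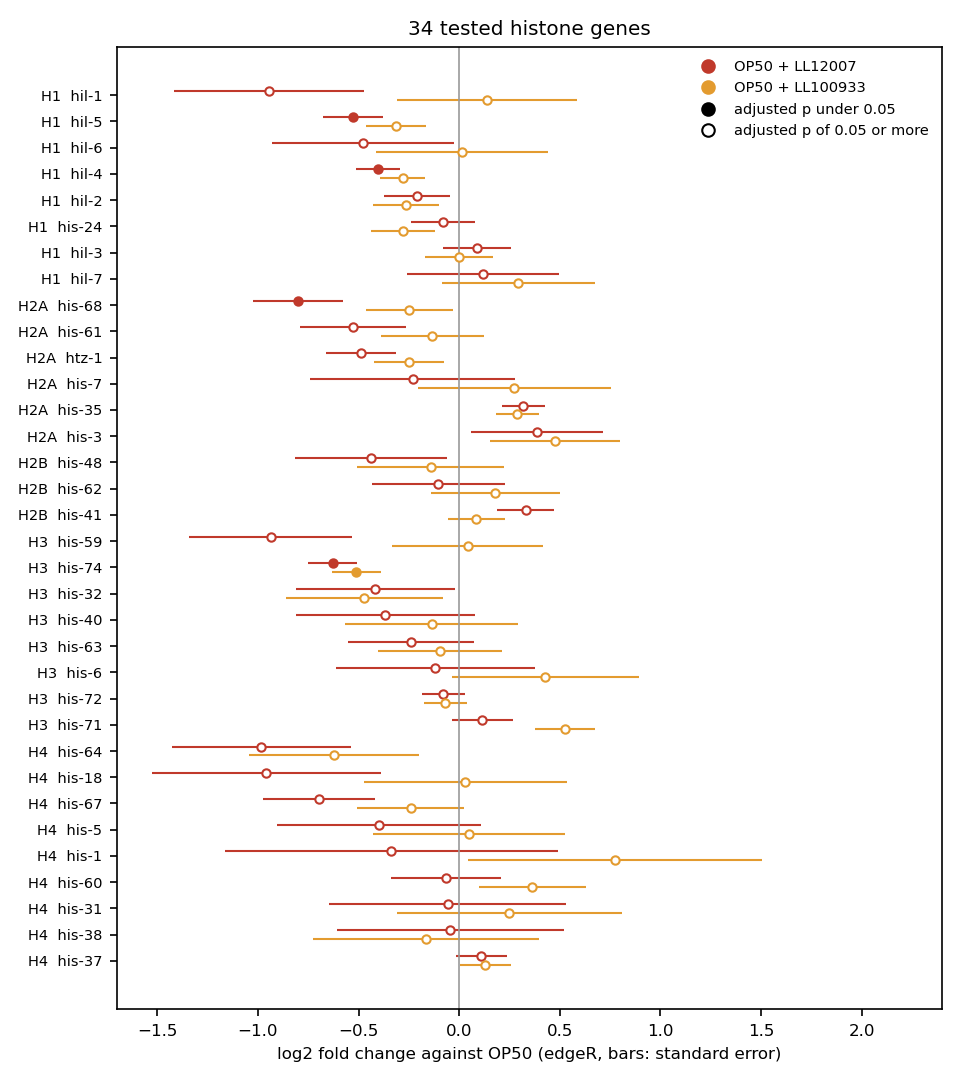
Log2 fold change of each of the 34 tested histone genes (vertical axis, grouped by class) for OP50 + LL12007 and OP50 + LL100933 against OP50, with bars for the standard error and filled points for an edgeR adjusted p under 0.05. Filled points are *his-74*, *hil-4*, *hil-5* and *his-68* for OP50 + LL12007 and *his-74* for OP50 + LL100933. Of the 34 OP50 + LL12007 points, 27 lie below 0, and 18 of these are genes without an intron.

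Of the 27 members without an intron, 19 had fewer than 50 counts in every library. Of the 19 that were tested, 18 had a log2 fold change below 0 with OP50 + LL12007 and 1 above, beside 7302 of all 14899 tested genes below 0. Group ranges lay below OP50 in 9 of these 19 (33.9% of all tested genes), and 1, *his-68*, passed (7.71% of all tested genes). With OP50 + LL100933 against OP50, 10 of the 19 were above 0 and 9 below. Between OP50 + LL12007 and OP50 + LL100933, 2 were above 0 and 17 below. The genes share the same libraries, and near-identical copies may share reads, so their signs are not independent. *his-64* (H4) had 0.758 and 0.790 CPM with OP50 + LL12007, 1.29 and 0.673 CPM with OP50 + LL100933, and 1.57 and 1.501 CPM with OP50, with a log2 fold change of -0.98 ± 0.44 with OP50 + LL12007 (edgeR adjusted p = 0.14). *his-18* (H4) had 0.316 and 0.527 CPM with OP50 + LL12007, 0.880 and 0.795 CPM with OP50 + LL100933, and 0.570 and 1.097 CPM with OP50. Its log2 fold change with OP50 + LL12007 was -0.96 ± 0.57 (edgeR adjusted p = 0.245), and -0.43 without the second OP50 library. *his-64* and *his-18* had between 5 and 33 counts per library.

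The intronless sum showed a wide gap between LL100933 libraries. It was 52.9 and 45.3 CPM with OP50 + LL12007, 80.3 and 50.8 CPM with OP50 + LL100933, and 66.7 and 68.2 CPM with OP50, without overlap between OP50 + LL12007 and OP50. The first LL100933 library was the highest of the 6 in the intronless sum and also in ribosomal RNA, RNA without a poly(A) tail. Without it, the OP50 + LL100933 value was 50.8 CPM, below both OP50 libraries. The part of poly(A) selection in either was not tested. *his-60* (H4, intronless) had 9.98 and 8.76 CPM with OP50 + LL12007, 16.3 and 8.87 CPM with OP50 + LL100933, and 10.4 and 9.24 CPM with OP50, and the first LL100933 library was again the highest. The sum over the 17 intron-containing members was 1603 and 1573 CPM with OP50 + LL12007, 1765 and 1562 CPM with OP50 + LL100933, and 1689 and 1992 CPM with OP50.

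**Figure D5:**
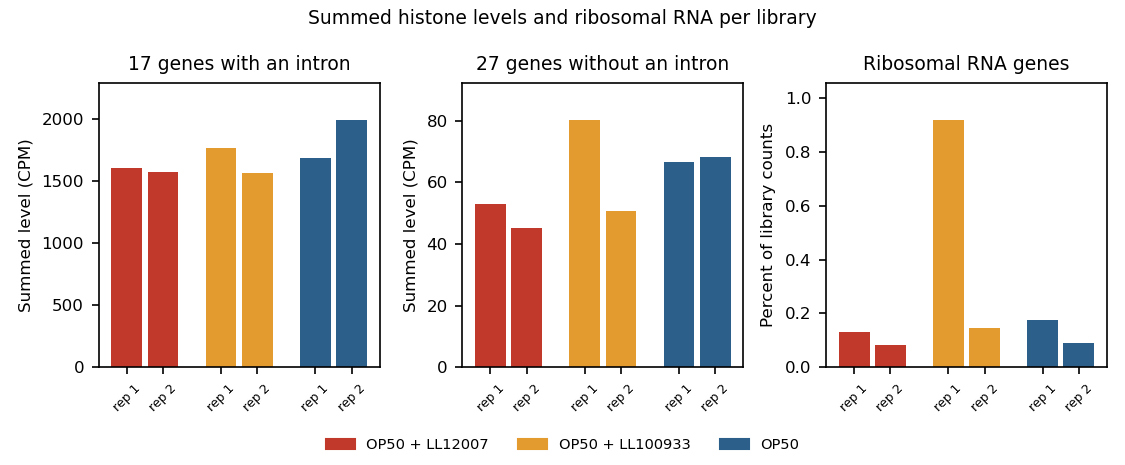
Summed level in CPM of the 17 members with an intron and of the 27 without one, and percent of library counts from ribosomal RNA genes, for each replicate of OP50 + LL12007, OP50 + LL100933 and OP50. The first LL100933 library is highest in the intronless sum (80.3 CPM) and in ribosomal RNA (0.919%).

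By class, the summed H2A level was 427 and 414 CPM with OP50 + LL12007, 566 and 406 CPM with OP50 + LL100933, and 533 and 567 CPM with OP50. The LL12007 libraries lay below OP50 for H2A and for H3 (181 and 172 CPM with OP50 + LL12007 against 202 and 204 CPM with OP50). H2B lay above, at 66.7 and 62.5 CPM with OP50 + LL12007 and 58.9 and 46.4 CPM with OP50. H4 overlapped, at 138 and 146 CPM with OP50 + LL12007 and 143 and 131 CPM with OP50. These sums were not tested. H2A rests mainly on *htz-1*, H2B on *his-41* and H4 on *his-37*.

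Genes that act on histone mRNAs or deposit histones fell in part. The counts of calls below stand beside 7.71% lower and 8.76% higher over all tested genes with OP50 + LL12007, and 2.24% lower and 4.38% higher with OP50 + LL100933. *cdl-1*, which encodes the stem-loop binding protein of histone mRNAs, had 312 and 279 CPM with OP50 + LL12007, 378 and 289 CPM with OP50 + LL100933, and 413 and 442 CPM with OP50. It fell with OP50 + LL12007 (log2 fold change -0.53 ± 0.15, edgeR adjusted p = 0.0446) and was at -0.36 ± 0.15 with OP50 + LL100933 (edgeR adjusted p = 0.146). Of the 10 listed genes for histone mRNA end processing, which are largely shared with the processing of other mRNAs, 4 were called lower and none higher with OP50 + LL12007, and none with OP50 + LL100933 by edgeR or by DESeq2 on the 6 libraries, where 9 were lower at an unadjusted p under 0.05 (15.8% of all tested genes). Of 12 histone chaperone genes, 4 were called lower with OP50 + LL12007, and 4 with OP50 + LL100933. Among them *hmg-3*, a subunit of the FACT chaperone, was at -0.49 ± 0.11 with OP50 + LL12007 (edgeR adjusted p = 0.0245) and -0.52 ± 0.11 with OP50 + LL100933 (edgeR adjusted p = 0.0357). *hcp-3*, the centromeric H3 variant CENP-A, fell with OP50 + LL12007 by 0.59 on the log2 scale (edgeR adjusted p = 0.0239) and was at -0.46 ± 0.12 with OP50 + LL100933 (edgeR adjusted p = 0.0546). Of the 7 listed genes of the H2A.Z deposition complex, *ruvb-2* was called lower with OP50 + LL12007, and *ruvb-1* and *ruvb-2* with OP50 + LL100933. No other gene of that list was called in either comparison. *htas-1*, a sperm H2A variant, had 0.0 CPM in both LL12007 libraries and at most 0.238 CPM elsewhere and was not tested.

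Beside these values stood changes in proliferation and cell-type genes, for which the number of calls depended in part on the tool. DESeq2 on the 6 libraries called 10.4% of the genes that received an adjusted p lower and 12.2% higher with OP50 + LL12007, and 6.03% lower and 9.42% higher with OP50 + LL100933. The difference in these counts between the diets was not tested, and neither tool called a gene of these lists between OP50 + LL12007 and OP50 + LL100933. Of 26 S phase genes, such as the MCM helicase subunits, edgeR called 21 lower with OP50 + LL12007 and 4 with OP50 + LL100933, DESeq2 on the 6 libraries called 20 and 13, and none was called higher. Their summed level was 3093 and 2873 CPM with OP50 + LL12007, 3402 and 2893 CPM with OP50 + LL100933, and 4040 and 4318 CPM with OP50. Of 14 germline markers, edgeR called 12 lower with OP50 + LL12007 and 2 with OP50 + LL100933, and DESeq2 13 and 8, with a summed level of 1821 and 1621 CPM with OP50 + LL12007, 2170 and 1795 CPM with OP50 + LL100933, and 2500 and 2777 CPM with OP50. Of 10 oocyte markers, edgeR called 10 lower with OP50 + LL12007 and 3 with OP50 + LL100933, and DESeq2 10 and 9, with a summed level of 4403 and 3962 CPM with OP50 + LL12007, 5026 and 4397 CPM with OP50 + LL100933, and 6354 and 7089 CPM with OP50. Each germline and oocyte marker was detected. Of 10 body wall muscle markers, edgeR called 3 higher with OP50 + LL12007 and 2 with OP50 + LL100933, and DESeq2 8 and 7, with a summed level of 10944 and 11577 CPM with OP50 + LL12007, 11696 and 12202 CPM with OP50 + LL100933, and 8709 and 7038 CPM with OP50. Of 10 neuron markers, edgeR called 4 higher with OP50 + LL12007 and 3 with OP50 + LL100933, and DESeq2 5 and 8. The part of germline and somatic content in the histone values was not tested.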

How the data were processed

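RNA from whole worms of 3 diets was poly(A)-selected, and 6 paired-end libraries were sequenced. Read counts per gene were deposited by the authors as one table per library, made, per the labels, with Trim Galore 0.6.5, Trimmomatic 0.39, cutadapt 2.7, STAR 2.7.2b on WBcel235 and featureCounts 1.6.4. Groups came from the sample labels.

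Genes were filtered with filterByExpr, scaled by TMM and tested with edgeR 4.0.16 (R 4.3.3, robust quasi-likelihood fit of all 6 libraries), with Benjamini-Hochberg adjustment over 14899 genes and a threshold of 0.05. DESeq2 1.42.0, other scaling factors, other filters, a replicate block and leaving out each library were alternatives, as were class sums split by annotated intron, a split chosen after seeing the counts. With 2 libraries against 2, an exact two-sided permutation test cannot go below p = 0.333. The histone genes and the other gene lists were chosen with earlier results of these data known. Values in every library are given for the 2 members of highest mean CPM in each class, the variant genes, called members, and the 2 of largest fold change per comparison. Near-identical copies may share reads.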

Additional observations from a re-analysis of the deposited data

How the results depend on the processing

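No direction of a called histone gene turned under any alternative run. Of 816 alternative values of the named genes, 769 kept their side of the threshold, 20 passed it only in the alternative and 27 lost it. Only a call can be lost, so the 27 fall on the 4 members called with OP50 + LL12007 and the 1 with OP50 + LL100933. Most of the 816 values belong to genes and comparisons without a call, so the 769 do not measure how firm the calls are. With OP50 + LL100933 against OP50, the count of 0 higher became 1 with DESeq2 on the 6 libraries and 1 with upper-quartile factors (*his-71*). The count of 1 lower became 0 with edgeR or DESeq2 on the 4 libraries of the pair, 0 with upper-quartile factors and 0 with a replicate block. With OP50 + LL12007 against OP50, the count of 0 higher became 1 with upper-quartile factors (*his-35*). The count of 4 lower became 2 with upper-quartile factors and 2 with a replicate block (*his-68* and *his-74*), and ranged from 0 without either LL12007 library to 7 without the first OP50 library, with 1 without the second OP50 library. Between the *Lactococcus* diets, the count of 0 lower became 1 (*hil-1*) with edgeR or DESeq2 on the 4 libraries of the pair. Leaving out a library also changed which members were called in each comparison. In both comparisons with OP50, higher as well as lower calls changed. None of the 4 calls with OP50 + LL12007 held in every such fit, nor did the 1 with OP50 + LL100933. A single library then stands for a group. The share of all genes called is given only for edgeR and DESeq2 on the 6 libraries. Counts under the other settings therefore do not tell histone genes from genes at large. The cause of these shifts was not tested. The labels do not say whether equal replicate numbers mark a shared batch. The correlation of same-numbered deviations was -0.0016 for OP50 + LL100933 with OP50, -0.058 for OP50 + LL12007 with OP50 and 0.199 for OP50 + LL12007 with OP50 + LL100933. Each group gives a single replicate difference, so these values cannot decide whether a batch was shared. No scaling moved the median log2 fold change of all genes by more than 0.06. Depth limits the intronless genes, of which 19 of the 27 had fewer than 50 counts in every library.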

Other observations

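Of 32 genes for histone-modifying enzymes, 5 were called lower and 1 higher with OP50 + LL12007 against OP50, and 3 lower with OP50 + LL100933 (edgeR's quasi-likelihood test, adjusted p under 0.05), beside 7.71% lower and 8.76% higher over all tested genes with OP50 + LL12007 and 2.24% lower with OP50 + LL100933. *hat-1*, a histone acetyltransferase gene, had 101 and 93.6 CPM with OP50 + LL12007, 105.5 and 100.3 CPM with OP50 + LL100933, and 146 and 146 CPM with OP50, and fell by 0.59 on the log2 scale with OP50 + LL12007 (edgeR adjusted p = 0.0193) and by 0.50 with OP50 + LL100933 (edgeR adjusted p = 0.0349). The single gene called higher was *set-30*, at 69.03 and 70.4 CPM with OP50 + LL12007, 60.4 and 67.8 CPM with OP50 + LL100933, and 52.3 and 42.2 CPM with OP50, with a log2 fold change of 0.56 ± 0.13 with OP50 + LL12007 (edgeR adjusted p = 0.0271) and 0.44 ± 0.13 with OP50 + LL100933 (edgeR adjusted p = 0.0664). Among the other markers, 2 of 11 tested sperm markers and 2 of 9 tested early embryo markers were called lower with OP50 + LL12007, and none with OP50 + LL100933, by edgeR, while DESeq2 on the 6 libraries called 0 sperm and 2 early embryo markers lower with OP50 + LL12007. Of 10 intestine markers, edgeR called 1 lower with OP50 + LL12007 and 1 higher with OP50 + LL100933 (4.38% of all tested genes higher). DESeq2 on the 6 libraries called 3 intestine markers lower and 1 higher with OP50 + LL12007, and 1 lower and 1 higher with OP50 + LL100933. Of 9 tested hypodermis markers, each tool called 2 higher and 1 lower with OP50 + LL12007.

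*hil-7*, singled out after its values were seen, had 99.2 and 110 CPM with OP50 + LL12007, 107 and 130 CPM with OP50 + LL100933, and 59.85 and 133 CPM with OP50. It was called higher with OP50 + LL12007 and with OP50 + LL100933 only in the fits without the second OP50 library.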
